A study of Mus musculus with 4 samples.

Results

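Dividing CD8 T cells of mouse melanomas were taken as the cells that held T cell and CD8 transcripts together with transcripts of the proliferation genes Mki67 and Top2a. A kept cell had at least 300 detected genes, at most 10% mitochondrial counts and at most 60000 counts. Members were chosen by their UMIs of 10 gate genes. A cell entered the set with at least 1 count of Cd3d, Cd3e or Cd3g, at least 1 of Cd8a or Cd8b1, none of Cd4, Foxp3 and Csf1r, and 3 or more of Mki67 and Top2a together. This gave 1648 cells of 25954 kept cells and of 6320 CD8 T cells, with 563 in the combination, 392 in the anti-PD-1, 366 in the anti-PSGL-1 and 327 in the IgG library. A count here is a unique molecular identifier (UMI), which stands for 1 captured RNA molecule.

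The cells came from B16-GP33 melanomas, a line made to carry a peptide of lymphocytic choriomeningitis virus that CD8 T cells recognise, implanted subcutaneously in C57BL/6 mice and taken on day 18. On days 8, 10 and 12 mice received anti-PD-1 together with anti-PSGL-1 (the combination), anti-PD-1 alone, anti-PSGL-1 alone or control IgG, with 200 ug of each antibody given. Live cells, those without propidium iodide, with CD45.2, a marker of blood-derived cells, were sorted from dissociated tumours and profiled in 10x Genomics droplets, with 1 library per treatment. How many tumours entered a library is not given in the sources used here, so differences between treatments have no replicate check. In dissociated tumours, fewer cells of a state and less RNA per cell cannot be told apart in sums over cells.

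A T cell that divides copies its DNA in S phase and separates the copies in mitosis. E2F factors switch on the genes for DNA copying, and a later set of genes for mitosis is released from repression by the DREAM complex, which binds the cell cycle genes homology region (CHR). In tumours, activated effector CD8 T cells and cells on the way to exhaustion are the ones known to divide, while naive and memory cells mostly rest.

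The start regions of 4 of these genes are shown because they carry the motifs through which the S phase and mitotic programmes are known to be switched. They run from 250 bases before to 50 bases after the RefSeq start on GRCm38.p6. Mki67 (chr7:135716330-135716629, minus strand) and Top2a (chr11:99024140-99024439, minus strand), which chose the cells, and Ube2c (chr2:164769679-164769978, plus strand), a ubiquitin enzyme of mitotic exit, hold CHR and CCAAT motifs. Mcm6 (chr1:128359656-128359955, minus strand), a subunit of the DNA helicase, holds E2F and CCAAT motifs. Capitals mark each match on either strand, overlaps included. The CHR motif was searched as TTTGAA, with TTCGAA as its other form. The box was searched as CCAAT. For E2F the letters were GCGGGAA, and GCGCGAA as the other form.
Mki67: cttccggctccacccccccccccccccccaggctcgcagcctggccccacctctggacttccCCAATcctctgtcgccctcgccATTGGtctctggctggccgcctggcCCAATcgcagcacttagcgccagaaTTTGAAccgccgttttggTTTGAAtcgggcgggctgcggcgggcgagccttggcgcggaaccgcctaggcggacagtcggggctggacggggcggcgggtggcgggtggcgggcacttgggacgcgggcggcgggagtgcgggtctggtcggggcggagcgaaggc
Top2a: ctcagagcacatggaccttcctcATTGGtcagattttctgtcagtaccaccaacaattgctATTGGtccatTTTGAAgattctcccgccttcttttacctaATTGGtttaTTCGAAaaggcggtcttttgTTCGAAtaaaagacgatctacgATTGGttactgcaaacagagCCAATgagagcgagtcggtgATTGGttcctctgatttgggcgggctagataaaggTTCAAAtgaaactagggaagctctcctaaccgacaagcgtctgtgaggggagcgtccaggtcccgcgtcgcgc
Ube2c: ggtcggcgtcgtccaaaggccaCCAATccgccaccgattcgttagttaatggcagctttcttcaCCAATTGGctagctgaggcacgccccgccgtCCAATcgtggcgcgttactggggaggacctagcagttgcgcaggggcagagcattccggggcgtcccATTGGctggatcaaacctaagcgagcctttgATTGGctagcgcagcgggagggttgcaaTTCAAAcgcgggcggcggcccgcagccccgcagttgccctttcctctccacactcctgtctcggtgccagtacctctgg
Mcm6: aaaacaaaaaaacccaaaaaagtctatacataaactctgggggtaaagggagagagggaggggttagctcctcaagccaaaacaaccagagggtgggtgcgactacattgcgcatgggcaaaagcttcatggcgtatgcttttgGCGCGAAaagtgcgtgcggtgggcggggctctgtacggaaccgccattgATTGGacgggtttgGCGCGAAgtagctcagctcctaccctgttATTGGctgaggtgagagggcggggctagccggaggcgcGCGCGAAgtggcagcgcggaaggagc
Of 53 RefSeq promoters of mitotic genes, 40 held a CHR motif (75.5%), against 8 of 43 promoters of S phase genes (18.6%) and 6316 of 32851 promoters of all genes (19.2%). An E2F motif stood in 5 mitotic (9.43%) and 24 S phase promoters (55.8%), against 6.00% of all promoters. CHR and CCAAT stood together in 66.0% of mitotic promoters, 14.0% of S phase promoters and 7.52% of all promoters. The Birc5 window held none of the 3 motifs. A match is a description of letters and was not tied to binding here.

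The label was checked against its markers, of which the gate did not use Birc5 and Ube2c. Birc5, a subunit of the complex that guides chromosome separation, stood at 378 CPM in the combination, 362 in the anti-PD-1, 338 in the anti-PSGL-1 and 381 in the IgG library in dividing cells, given as CPM (counts per 1e6 UMIs summed over those cells). In non-dividing CD8 T cells, which passed the same T cell gate with 0 UMIs of Mki67 and Top2a, it stood at 21.2 CPM in the combination, 27.7 in the anti-PD-1, 13.5 in the anti-PSGL-1 and 30.2 in the IgG library. Ube2c gave 379.6 CPM in the combination, 347 in the anti-PD-1, 335 in the anti-PSGL-1 and 468 in the IgG library in dividing cells, against 32.2 CPM in the combination, 35.1 in the anti-PD-1, 24.9 in the anti-PSGL-1 and 54.9 in the IgG library in non-dividing cells. The groups did not overlap for either gene. With every cell thinned to 3000 UMIs, Birc5 was detected in 55.5% to 60.5% of dividing cells, 2.69% to 5.48% of non-dividing CD8 T cells and 0.743% to 1.83% of macrophage-gated cells. Cd8a (chr6:71373427-71379173, mm10), a gate gene, stood at 589.5 to 753 CPM in dividing and 584 to 868 CPM in non-dividing cells. Cells just inside the minimum, with exactly 3 gate UMIs, numbered 181 and held Birc5 at 107 to 154 CPM, and the 376 just outside it, with exactly 2, held 42.1 to 101 CPM. Ube2c did not set them apart, at 57.8 to 107.2 CPM with exactly 3 gate UMIs and 60.6 to 107.5 CPM with exactly 2. In the anti-PD-1 library it was lower with 3 (57.8 CPM) than with 2 (68.9 CPM).

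Depth differed between the kinds of cell and between libraries. Dividing cells had a median of 18541 UMIs in the combination, 16545.5 in the anti-PD-1, 14637.5 in the anti-PSGL-1 and 10937 in the IgG library. Non-dividing cells had 7105 UMIs in the combination, 6747 in the anti-PD-1, 5622 in the anti-PSGL-1 and 3590 in the IgG library, so that dividing cells had 2.45 to 3.05 times as many. Of the kept cells of 2 libraries, 5 to 13 barcodes were shared, at most 0.251% of a library, and none of them was a dividing CD8 T cell in both. Over 12 macrophage and monocyte markers, dividing cells summed to 235 CPM in the combination, 424 in the anti-PD-1, 416 in the anti-PSGL-1 and 575 in the IgG library. Non-dividing cells summed to 489 CPM in the combination, 625 in the anti-PD-1, 596 in the anti-PSGL-1 and 1825 in the IgG library. Over 8 melanoma markers, dividing cells summed to 1.86 to 4.25 CPM. Erythroid markers (5 genes) summed to 187 CPM in dividing cells of the IgG library. They summed to 0 CPM in the combination, 1.37 in the anti-PD-1 and 0.178 in the anti-PSGL-1 library. In non-dividing cells of the IgG library they were at 0. The 5 B cell markers summed to 0.553 CPM in the combination, 0.608 in the anti-PD-1, 4.99 in the anti-PSGL-1 and 7.19 in the IgG library in dividing cells. Cells with 5 or more UMIs of C1qa, C1qb, C1qc and Lyz2 made up 1.07% of dividing cells in the combination, 2.30% in the anti-PD-1, 1.09% in the anti-PSGL-1 and 9.48% in the IgG library.

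As gated, dividing cells made up 32.1% of CD8 T cells in the combination (exact 95% Clopper-Pearson interval 29.9% to 34.3%), 32.5% in the anti-PD-1 (29.8% to 35.2%), 25.0% in the anti-PSGL-1 (22.8% to 27.3%) and 17.3% in the IgG library (15.6% to 19.1%). The median depth of CD8 T cells moved in a like way, and IgG was lowest in both. When each cell was thinned to 3000 UMIs and 2 or more gate UMIs were asked for, the shares were 22.1% in the combination (20.1% to 24.1%), 23.8% in the anti-PD-1 (21.3% to 26.4%), 19.7% in the anti-PSGL-1 (17.6% to 21.9%) and 19.4% in the IgG library (17.3% to 21.6%). At this setting the intervals of each treated library overlapped that of IgG. Thinning left out 45 shallower cells in the combination, 59 in the anti-PD-1, 63 in the anti-PSGL-1 and 515 in the IgG library. Those left out in IgG were mostly non-dividing as gated, with 400 of 1167 non-dividing and 8 of 327 dividing cells. In the combination they were 38 of 783 non-dividing and 2 of 563 dividing cells. Leaving out non-dividing cells raises the share, most of all in IgG. Whether the intervals overlapped depended on the setting. At 2000 UMIs, which left out 120 IgG cells, and 2 or more gate UMIs, the shares were 16.6% in the combination (14.8% to 18.4%), 18.2% in the anti-PD-1 (16.1% to 20.5%), 14.6% in the anti-PSGL-1 (12.8% to 16.5%) and 12.5% in the IgG library (11% to 14.2%). There the combination and anti-PD-1 intervals lay above that of IgG. At 2000 UMIs and 3 or more gate UMIs, the interval of every treated library lay above that of IgG (5.38% to 7.73%). These intervals were 7.91% to 10.7% in the combination, 10.3% to 14.0% in the anti-PD-1 and 8.36% to 11.5% in the anti-PSGL-1 library. At 3000 UMIs and 3 or more gate UMIs, the anti-PD-1 interval (15.5% to 20.0%) also lay above that of IgG (11.1% to 14.7%). The intervals cover counting error only.

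**Figure D1:**
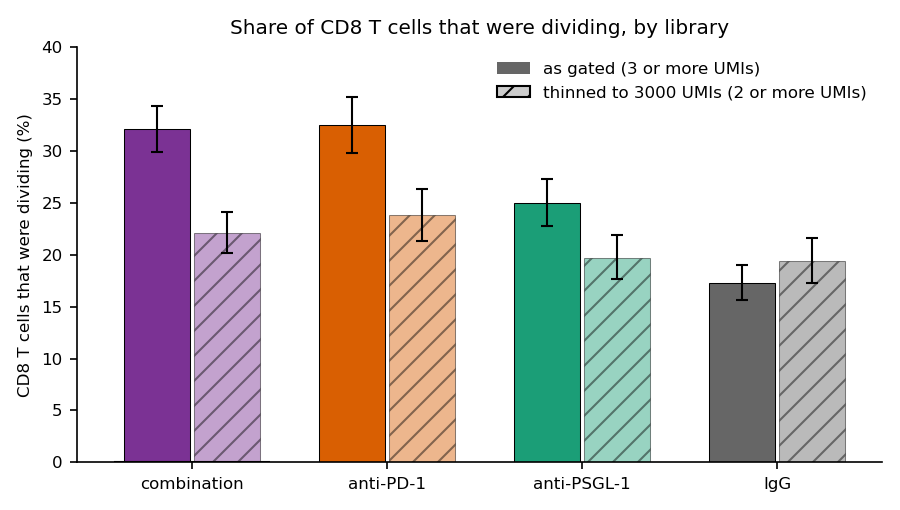
Share of CD8 T cells that were dividing (percent, vertical axis) in each library, as gated and after each cell was thinned to 3000 UMIs; bars are shares and whiskers exact 95% binomial intervals. As gated, with 3 or more gate UMIs, the shares ran from 17.3% in IgG to 32.5% in anti-PD-1. After thinning, with 2 or more gate UMIs, they lay between 19.4% and 23.8%. Thinning left out 515 IgG cells, most of them non-dividing as gated, which raises the IgG share.

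Other immune cells gave a scale for these shares. At 3000 UMIs, 8.33% of regulatory T cells were dividing in the combination, 12.9% in the anti-PD-1, 18.4% in the anti-PSGL-1 and 15.8% in the IgG library. Conventional CD4 T cells gave 1.61% to 12.5%, NK cells 3.37% to 8.66% and macrophage-gated cells 0.805% to 1.35%. The upper CD4 and NK values were those of IgG, where thinning left out most cells of these gates. They rested on 136 CD4 T cells (149 left out, interval 7.45% to 19.3%) and 127 NK cells (243 left out, 4.40% to 15.0%). In neutrophil-gated cells, a background since mature neutrophils do not divide, 0 of 12 cells deep enough were called in the combination, 0 of 1 in the anti-PD-1, 1 of 26 in the anti-PSGL-1 and 2 of 14 in the IgG library. At this setting CD8 T cells had the highest share of these gates in all 4 libraries. At 2000 UMIs and 2 or more gate UMIs, regulatory T cells of the anti-PSGL-1 library gave 15.7% (10.5% to 22.1%) and CD8 T cells 14.6%. There the IgG library gave 9.14% of regulatory T cells, 5.24% of conventional CD4 T cells and 2.69% of NK cells.

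Within CD8 T cells, few naive-like cells were dividing. Among naive-like cells, with 2 or more of 5 genes of naive T cells detected (Lef1, S1pr1, Ccr7 and Dapl1 among them), 2 of 49 were dividing in the combination (4.08%), 4 of 90 in the anti-PD-1 (4.44%), 8 of 166 in the anti-PSGL-1 (4.82%) and 11 of 254 in the IgG library (4.33%). Cells with a UMI of Tcf7, a transcription factor of naive and progenitor cells, gave 4.35% in the combination, 5.08% in the anti-PD-1, 10.3% in the anti-PSGL-1 and 2.79% in the IgG library. Both shares were below that of all CD8 T cells in all 4 libraries. Over 4 libraries, an exact paired permutation test cannot give a two-sided p below 0.125.

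Cells with UMIs of both Pdcd1, the inhibitory receptor PD-1, and Tox, a transcription factor of exhaustion, divided at 22.7% in the combination, 25.6% in the anti-PD-1, 21.5% in the anti-PSGL-1 and 24.1% in the IgG library. Cells with a UMI of any of granzymes C to G, proteases of killer cells, gave 26.9% in the combination, 25.9% in the anti-PD-1, 20.6% in the anti-PSGL-1 (14 of 68 cells) and 19.3% in the IgG library (16 of 83 cells). Cells with a UMI of Cx3cr1, a chemokine receptor of effector cells, gave 29.2% in the combination (22.4% to 36.7%), 17.7% in the anti-PD-1 (11.5% to 25.6%), 19.4% in the anti-PSGL-1 (13.8% to 26.2%) and 13.0% in the IgG library (6.93% to 21.7%). The combination and IgG intervals for Cx3cr1 did not overlap, with the IgG share resting on 12 of 92 cells. For every other subset looked at, the combination and IgG intervals overlapped. Macrophage-gated cells also held Cx3cr1, at 7.0% to 16.1% of cells.

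**Figure D2:**
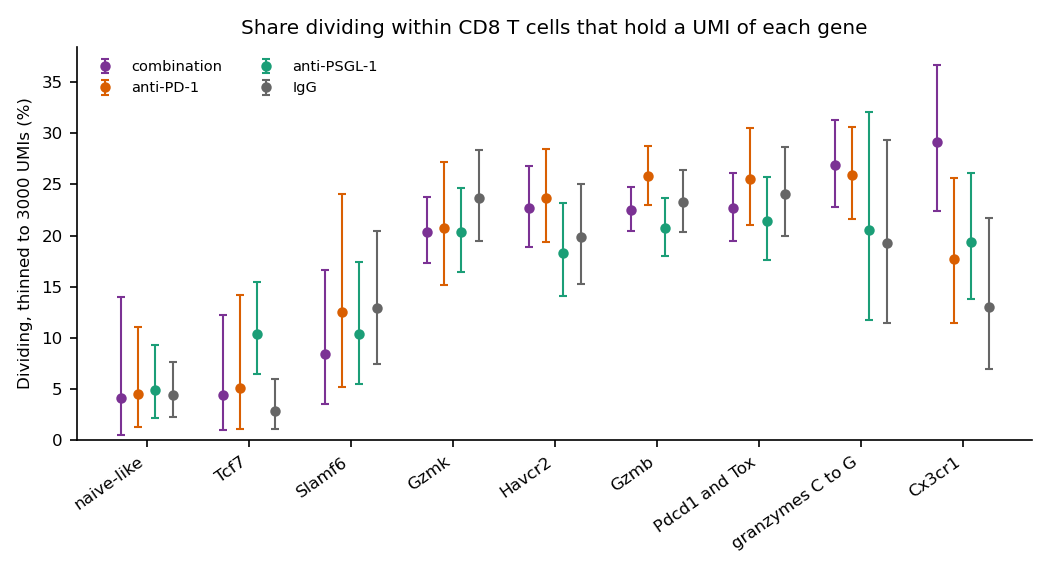
Share of cells dividing (percent, vertical axis) among CD8 T cells of each library that held UMIs of the gene or genes named, at 3000 UMIs per cell; points are shares and whiskers exact 95% binomial intervals. Naive-like cells lie between 4.08% and 4.82% in all 4 libraries, and Pdcd1 and Tox cells between 21.5% and 25.6%.

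The genes of DNA copying and mitosis are those that the gate follows, so they describe the set and were not taken as tested. All 16 genes of origin licensing, 20 of the replication fork, 16 of nucleotide supply, 19 mitotic kinases and cyclins, 29 of kinetochore and spindle and 20 of chromatin stood higher in dividing cells in edgeR's quasi-likelihood fit, and 7 of 8 measured ubiquitin enzymes of mitotic exit. In that fit 26.6% of all 10109 genes were called higher and 28.4% lower. Median log2 ratios of dividing to non-dividing cells were 2.25 for licensing, 2.32 for the fork, 1.41 for nucleotide supply, 4.10 for mitotic kinases and 4.27 for kinetochore and spindle, against -0.04 over all genes. Pttg1, the securin that holds back chromosome separation, was the exception among ubiquitin and exit genes, at 80.9 to 100.4 CPM in dividing and 74.9 to 107 CPM in non-dividing cells.

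Mcm5, a helicase subunit, stood at 189 CPM in the combination, 194 in the anti-PD-1, 157 in the anti-PSGL-1 and 179 in the IgG library in dividing cells, against 39.3 CPM in the combination, 34.5 in the anti-PD-1, 36.9 in the anti-PSGL-1 and 42.4 in the IgG library in non-dividing cells. Rrm2, the subunit of ribonucleotide reductase made in S phase, stood at 228 CPM in the combination, 243 in the anti-PD-1, 200.3 in the anti-PSGL-1 and 219 in the IgG library in dividing cells, against 6.29 CPM in the combination, 5.55 in the anti-PD-1, 5.13 in the anti-PSGL-1 and 14.9 in the IgG library in non-dividing cells. Cdk1, the kinase that starts mitosis, stood at 208 CPM in the combination, 186 in the anti-PD-1, 185 in the anti-PSGL-1 and 204 in the IgG library in dividing cells, against 8.33 CPM in the combination, 6.71 in the anti-PD-1, 5.32 in the anti-PSGL-1 and 10.3 in the IgG library in non-dividing cells. The groups did not overlap for any of these genes. Log2 ratios ran over a wide range within lists. Licensing genes ran from 0.73 for Dbf4, which activates the kinase of origin firing, to 4.38 for Mcm10, which helps to start the helicase. Nucleotide supply ran from 0.65 for Atic, a purine enzyme, to 4.79 for Rrm2. Mitotic kinases and cyclins ran from 1.45 for Cdc25b, a phosphatase that activates Cdk1, to 5.93 for the kinase Pbk, and kinetochore and spindle genes from 1.16 for Cenpa, the histone of centromeres, to 5.51 for Ckap2l, a spindle protein. The 10 genes outside the lists with the largest higher ratios were also genes of division, among them Esco2 (sister chromatid cohesion, log2 ratio 6.99), Ska1 (spindle attachment, 5.28), Aspm (spindle poles, 5.23), Cdca5 (cohesion, 5.19), Rad51ap1 (DNA repair, 4.85) and the histone genes Hist1h2ab (6.12) and Hist1h1a (4.74). Non-dividing cells held 0 to 1.21 CPM of Esco2, so its ratio depends on the fit. Histone genes have near-identical copies, and their counts may be split between them.

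Dividing cells spanned S phase and mitotic expression. At 3000 UMIs, the summed S phase genes were at least 2 times the mitotic genes in 27.6% of dividing cells in the combination (24.0% to 31.5%), 33.6% in the anti-PD-1 (28.9% to 38.5%), 24.9% in the anti-PSGL-1 (20.5% to 29.6%) and 28.5% in the IgG library (23.6% to 33.8%). Mitotic genes were at least 2 times the S phase genes in 26.4% of cells in the combination, 21.5% in the anti-PD-1, 30.6% in the anti-PSGL-1 and 29.5% in the IgG library. The intervals of every treated library overlapped that of IgG for both classes. These classes are ranges of a score, and 27.6% to 37.2% of cells lay near a limit. Non-dividing cells, with few UMIs of these genes, also fell into them, with 33.1% to 38.9% on the S phase side, so the classes describe a balance and not division.

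**Figure D3:**
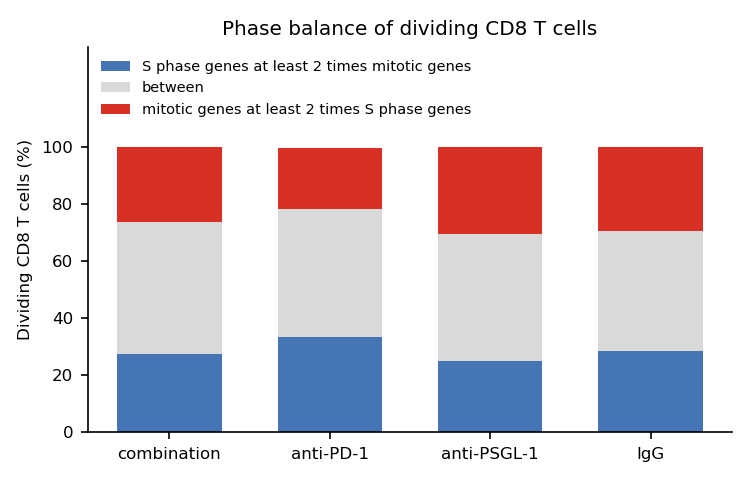
Percent of dividing CD8 T cells (vertical axis) of each library in which S phase genes were at least 2 times mitotic genes (bottom), neither (middle) or mitotic genes at least 2 times S phase genes (top). The bottom share lies between 24.9% and 33.6% and the top share between 21.5% and 30.6%.

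Genes outside the cell cycle lists were tested between dividing and non-dividing cells with edgeR's quasi-likelihood test on sums per library, with the library as a block and Benjamini-Hochberg adjustment. Of 9974 such genes, 2558 were higher (25.6%) and 2861 lower (28.7%) in dividing cells at an adjusted p below 0.05. The contrast is relative to total UMIs, and dividing cells hold 2.45 to 3.05 times as many of them (medians), so a gene that is lower in CPM can have more UMIs per cell. Counts of list members with more UMIs per dividing cell, given below, follow in large part from this depth. The share over all genes was not computed for them, so they are no result about a list.

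Of 24 measured genes of cycle entry and its brakes, 15 rose and 6 fell, against 25.6% of all genes outside the cycle lists called higher and 28.7% lower. The list holds genes of the cycle itself, Ccne1, E2f7 and E2f8 among them, which the gate follows. The count that rose therefore describes the set and was not taken as tested. The share that fell is near that of all genes. Ccne1, a cyclin that starts S phase, stood at 30.1 to 43.9 CPM in dividing and 4.56 to 8.09 CPM in non-dividing cells, a log2 ratio of 2.41 ± 0.11 (SE). E2f7 and E2f8, repressors of E2F targets, rose with log2 ratios of 5.26 and 5.27. The 6 that fell were Btg1, Btg2 and Tob1, which restrain growth, Cdkn1b, the p27 inhibitor of cyclin kinases, and the D cyclins Ccnd1 and Ccnd2. Cdkn1b stood at 60.0 CPM in the combination, 60.3 in the anti-PD-1, 74.5 in the anti-PSGL-1 and 57.5 in the IgG library in dividing cells, against 121 CPM in the combination, 104 in the anti-PD-1, 131 in the anti-PSGL-1 and 134 in the IgG library in non-dividing cells (log2 ratio -0.98 ± 0.07, edgeR adjusted p = 9.72e-08). Btg1 stood at 363 to 460.4 CPM in dividing and 806 to 1001 CPM in non-dividing cells (log2 ratio -1.19 ± 0.05, edgeR adjusted p = 4.16e-10), and the groups did not overlap. Cdkn1a, the p21 inhibitor, rose instead, at 153 CPM in the combination, 144 in the anti-PD-1, 156 in the anti-PSGL-1 and 103 in the IgG library in dividing cells, against 77.5 CPM in the combination, 84.4 in the anti-PD-1, 95.6 in the anti-PSGL-1 and 101 in the IgG library in non-dividing cells (log2 ratio 0.61 ± 0.11, edgeR adjusted p = 0.000385). In the IgG library the 2 levels of Cdkn1a were close.

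Genes of naive, progenitor and memory cells fell as a whole. All 18 members were lower in dividing cells, with a median log2 ratio of -1.72, against 28.7% of all genes outside the cycle lists. S1pr1, the receptor with which T cells leave tissue, stood at 3.87 CPM in the combination, 4.41 in the anti-PD-1, 10.9 in the anti-PSGL-1 and 9.32 in the IgG library in dividing cells, against 31.4 CPM in the combination, 28.4 in the anti-PD-1, 74.9 in the anti-PSGL-1 and 95 in the IgG library in non-dividing cells (log2 ratio -3.00 ± 0.11, edgeR adjusted p = 1.5e-10). Tcf7 stood at 1.84 CPM in the combination, 2.73 in the anti-PD-1, 23.7 in the anti-PSGL-1 and 13.3 in the IgG library in dividing cells, against 22.8 CPM in the combination, 35.6 in the anti-PD-1, 85.7 in the anti-PSGL-1 and 99.6 in the IgG library in non-dividing cells (log2 ratio -2.70 ± 0.21, edgeR adjusted p = 2.31e-07). For both genes each library's dividing cells were below its non-dividing cells. For Tcf7 the anti-PSGL-1 dividing cells overlapped the combination non-dividing cells.

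Il7r, the receptor for the survival cytokine IL-7, stood at 24.8 CPM in the combination, 33.9 in the anti-PD-1, 23.9 in the anti-PSGL-1 and 18.4 in the IgG library in dividing cells, against 48.7 CPM in the combination, 104 in the anti-PD-1, 124 in the anti-PSGL-1 and 132 in the IgG library in non-dividing cells (log2 ratio -1.90 ± 0.20, edgeR adjusted p = 3.34e-06). Klf3, a regulator of quiescence, fell by 2.94 on the log2 scale. Bcl2, a survival factor, fell by 1.76 and Cd27, a costimulatory receptor, fell by 0.63. Foxo1, a transcription factor of quiescence, fell least, by 0.39. Without naive-like cells, 15 of 16 measured members were still lower, with a median of -1.38. For 8 of the 18 members dividing cells also held fewer UMIs per cell in all 4 libraries. Tcf7 had 0.0355 UMIs in the combination, 0.0459 in the anti-PD-1, 0.363 in the anti-PSGL-1 and 0.153 in the IgG library per dividing cell, against 0.185 UMIs in the combination, 0.269 in the anti-PD-1, 0.563 in the anti-PSGL-1 and 0.424 in the IgG library per non-dividing cell.

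Further genes with the largest lower ratios were Tcp11l2 (2.12 to 4.99 CPM in dividing and 26.6 to 41.2 CPM in non-dividing cells), Ssh2, a phosphatase of the actin regulator cofilin (log2 ratio -2.01), Satb1, a chromatin organiser of T cells (-1.99), and the long non-coding RNA Lncpint (-1.97). S100a8, a neutrophil gene, was lower by 4.95 on the log2 scale. The 5 neutrophil markers summed to 3.04 CPM in the combination, 1.06 in the anti-PD-1, 6.59 in the anti-PSGL-1 and 19.4 in the IgG library in dividing cells, against 107 in the combination, 2.77 in the anti-PD-1, 216 in the anti-PSGL-1 and 307 in the IgG library in non-dividing cells. Lyz2, a myeloid gene, moved the same way (log2 ratio -1.66). Their part in the other lower genes was not tested.

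Effector genes were mostly level or lower in CPM. Of 31 cytotoxic genes 2 rose and 16 fell, against 25.6% of all genes called higher and 28.7% lower, and the median log2 ratio was -0.31. Gzmb, the main granzyme of killer T cells, stood at 2627 CPM in the combination, 2277 in the anti-PD-1, 767 in the anti-PSGL-1 and 736 in the IgG library in dividing cells, against 2471 CPM in the combination, 2137 in the anti-PD-1, 824 in the anti-PSGL-1 and 678 in the IgG library in non-dividing cells. Its log2 ratio was 0.02 ± 0.05 (SE, edgeR adjusted p = 0.786). Prf1, which makes the pore for granzymes, had a log2 ratio of -0.10 ± 0.06 (edgeR adjusted p = 0.183). For both genes the libraries differed far more than the 2 kinds of cell within a library. Per cell, Gzmb had 50.6 UMIs in the combination, 38.2 in the anti-PD-1, 11.8 in the anti-PSGL-1 and 8.46 in the IgG library in dividing cells, against 20.1 UMIs in the combination, 16.1 in the anti-PD-1, 5.42 in the anti-PSGL-1 and 2.89 in the IgG library in non-dividing cells.

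Ccl5, a chemokine of effector and memory T cells, stood at 4029 CPM in the combination, 2582 in the anti-PD-1, 3363 in the anti-PSGL-1 and 2844 in the IgG library in dividing cells, against 12316 CPM in the combination, 7091 in the anti-PD-1, 7878 in the anti-PSGL-1 and 5959.6 in the IgG library in non-dividing cells (log2 ratio -1.38 ± 0.07, edgeR adjusted p = 2.81e-09). The groups did not overlap. Gzma fell by 0.97, the NK-type receptor Klrd1 by 0.63 and Gzmm by 1.6 on the log2 scale. Gzmg, at 0 UMIs in IgG, fell by 2.21 and rested on the combination and anti-PD-1 libraries. Gzmc rose, with 699.8 CPM in the combination, 994 in the anti-PD-1, 120.3 in the anti-PSGL-1 and 109.7 in the IgG library in dividing cells, against 380.3 CPM in the combination, 782 in the anti-PD-1, 42.9 in the anti-PSGL-1 and 90.7 in the IgG library in non-dividing cells (log2 ratio 0.68 ± 0.13, edgeR adjusted p = 0.000909). Without naive-like cells the Gzmc ratio was 0.22 and no longer past the threshold. Id2, a regulator of effector cells, rose by 0.21 on the log2 scale, and this call was also lost without naive-like cells. With no block for the library none rose and 7 fell, against 1960 higher and 1821 lower of 9974 genes outside the cycle lists. Without naive-like cells none rose and 18 fell, against 2339 higher and 2590 lower of 9639 such genes. Of the 16 genes that fell, 11 had more UMIs per dividing than per non-dividing cell in all 4 libraries, a count that moves with depth.

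Most inhibitory receptor genes had ratios near 0. Of 18 members 1 rose and 8 fell, against 25.6% of all genes called higher and 28.7% lower, with a median of -0.17. Of the 8 that fell in CPM, 7 had more UMIs per dividing than per non-dividing cell in all 4 libraries. Pdcd1 (chr1:94038305-94052553, mm10, the gene of the anti-PD-1 target) stood at 599 CPM in the combination, 564 in the anti-PD-1, 424 in the anti-PSGL-1 and 471 in the IgG library in dividing cells, against 669 CPM in the combination, 568 in the anti-PD-1, 366 in the anti-PSGL-1 and 370.0 in the IgG library in non-dividing cells (log2 ratio 0.06 ± 0.07, edgeR adjusted p = 0.52). Tox had a log2 ratio of 0.08 ± 0.07 (edgeR adjusted p = 0.305) and Havcr2, the receptor TIM-3, -0.10 ± 0.06 (edgeR adjusted p = 0.186). Lag3, a receptor for MHC class II, fell, with 276 CPM in the combination, 234 in the anti-PD-1, 141 in the anti-PSGL-1 and 182 in the IgG library in dividing cells, against 364 CPM in the combination, 324 in the anti-PD-1, 159 in the anti-PSGL-1 and 226 in the IgG library in non-dividing cells (log2 ratio -0.38 ± 0.06, edgeR adjusted p = 0.00012). Cd7, a T cell surface protein, fell by 0.89 and Nr4a3, a nuclear receptor induced by antigen, by 0.54 on the log2 scale. With no block for the library 3 of the 18 fell, against 1821 of 9974 genes outside the cycle lists. With every cell thinned to 3000 UMIs 4 of 17 measured members fell, against 1797 of 8149 such genes. Both shares are near those of all genes at the same setting, so the count of this list is no firm result. Rgs16, which dampens signals of chemokine receptors, rose, with 385 to 423 CPM in dividing cells, against 237 to 329.7 CPM in non-dividing cells (log2 ratio 0.42 ± 0.08, edgeR adjusted p = 0.000664).

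Genes induced by the T cell receptor and costimulation mostly fell. Of 18 members 11 fell and 2 rose, against 28.7% of all genes called lower and 25.6% higher, with a median of -0.37. Of the 11 that fell in CPM, 9 had more UMIs per dividing than per non-dividing cell in all 4 libraries, and 1 had fewer. Cd69, an early activation marker that retains cells in tissue, stood at 32.1 CPM in the combination, 30.1 in the anti-PD-1, 50.6 in the anti-PSGL-1 and 25.0 in the IgG library in dividing cells, against 97.6 CPM in the combination, 91.8 in the anti-PD-1, 125 in the anti-PSGL-1 and 100.4 in the IgG library in non-dividing cells (log2 ratio -1.63 ± 0.09, edgeR adjusted p = 4.41e-09). Icos, a costimulatory receptor, fell by 1.00 on the log2 scale, with 93.2 to 129 CPM in dividing and 174 to 258 CPM in non-dividing cells. The groups did not overlap for either gene. Irf8 and Tnfrsf4 were the 2 that rose, by 0.20 and 0.16, and both calls were lost when the combination library or the naive-like cells were left out. With no block for the library 8 fell and none rose, against 1821 lower and 1960 higher of 9974 genes outside the cycle lists.

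Genes of the folate cycle and of mitochondrial growth rose. All 18 members were higher, with a median of 0.73, against 25.6% of all genes outside the cycle lists. Mthfd2, a mitochondrial enzyme that supplies one-carbon units for purines, stood at 112 CPM in the combination, 115 in the anti-PD-1, 118 in the anti-PSGL-1 and 113 in the IgG library in dividing cells, against 41.0 CPM in the combination, 55.7 in the anti-PD-1, 45.8 in the anti-PSGL-1 and 46.9 in the IgG library in non-dividing cells (log2 ratio 1.25 ± 0.07, edgeR adjusted p = 9.6e-09). Shmt1, the cytosolic enzyme that takes these units from serine, had the largest ratio, at 2.27 ± 0.14 (edgeR adjusted p = 3.08e-08). Mthfd1 (1.5), Shmt2 (1.10) and the spermidine synthase Srm (0.89) were among the others. Timm10 and Hspe1, a translocase subunit and a chaperonin of mitochondria, had the smallest ratios, 0.20 and 0.18, and lost the call without the IgG library.

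Of 18 glycolysis and low oxygen genes 7 rose and 5 fell, with a median of 0.12. These counts are near those of all genes, 25.6% higher and 28.7% lower, and are no result about the group. Ldha, lactate dehydrogenase, stood at 1363 CPM in the combination, 1385 in the anti-PD-1, 1172 in the anti-PSGL-1 and 1226 in the IgG library in dividing cells, against 964 CPM in the combination, 1042 in the anti-PD-1, 744 in the anti-PSGL-1 and 794 in the IgG library in non-dividing cells (log2 ratio 0.51 ± 0.05, edgeR adjusted p = 1.32e-06). Tpi1 rose by 0.56 and Gapdh by 0.27 on the log2 scale. The low-oxygen genes Bnip3, which fell by 0.48, and P4ha1, by 0.37, were among those lower. With no block for the library, 4 members rose and none fell, against 1960 higher and 1821 lower of 9974 genes outside the cycle lists.

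Interferon response genes were lower in dividing cells. All 19 members fell, with a median of -1.08, against 28.7% of all genes outside the cycle lists. Isg15, a ubiquitin-like protein induced by interferon, stood at 88.5 CPM in the combination, 84.2 in the anti-PD-1, 50.6 in the anti-PSGL-1 and 62.3 in the IgG library in dividing cells, against 182 CPM in the combination, 178 in the anti-PD-1, 90.1 in the anti-PSGL-1 and 149 in the IgG library in non-dividing cells (log2 ratio -1.08 ± 0.07, edgeR adjusted p = 1.82e-08). In each library the dividing cells were lower in Isg15, while the ranges over libraries overlapped. For Ifit3 the groups did not overlap, with 1.06 to 5.16 CPM in dividing and 13.3 to 18.5 CPM in non-dividing cells. Ifit3 fell by 2.00 and Iigp1, a GTPase that attacks parasite vacuoles, by 1.91 on the log2 scale. Irf1, a transcription factor induced by interferon, fell by 0.56 and Socs1, a feedback inhibitor of cytokine signals, by 0.47. Of the 19 members, 9 had more UMIs per dividing cell in all 4 libraries and 4 had fewer.

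Receptors for homing and residence fell in CPM in 13 of 15 measured members, against 28.7% of all genes, with a median of -0.55. Of these 13, 8 had more UMIs per dividing than per non-dividing cell in all 4 libraries, and none had fewer in all 4. Cxcr3, a receptor for interferon-induced chemokines, stood at 19.8 CPM in the combination, 8.35 in the anti-PD-1, 23.5 in the anti-PSGL-1 and 21.6 in the IgG library in dividing cells, against 64.3 CPM in the combination, 26.4 in the anti-PD-1, 55.5 in the anti-PSGL-1 and 54.7 in the IgG library in non-dividing cells (log2 ratio -1.52 ± 0.10, edgeR adjusted p = 2.81e-08). Ccr2, another chemokine receptor, fell by 1.25 and Cxcr6, a receptor of tumour-resident T cells, by 0.55. Selplg (chr5:113818536-113832644, mm10), which encodes PSGL-1, the selectin ligand bound by the second antibody, stood at 407 CPM in the combination, 385 in the anti-PD-1, 404 in the anti-PSGL-1 and 386 in the IgG library in dividing cells, against 598 CPM in the combination, 499 in the anti-PD-1, 497 in the anti-PSGL-1 and 533 in the IgG library in non-dividing cells (log2 ratio -0.46 ± 0.05, edgeR adjusted p = 7.07e-06). The 2 ranges of Selplg did not overlap. Itgb2, the common chain of leukocyte integrins, gave -0.04 ± 0.05 (edgeR adjusted p = 0.52).

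**Figure D4:**
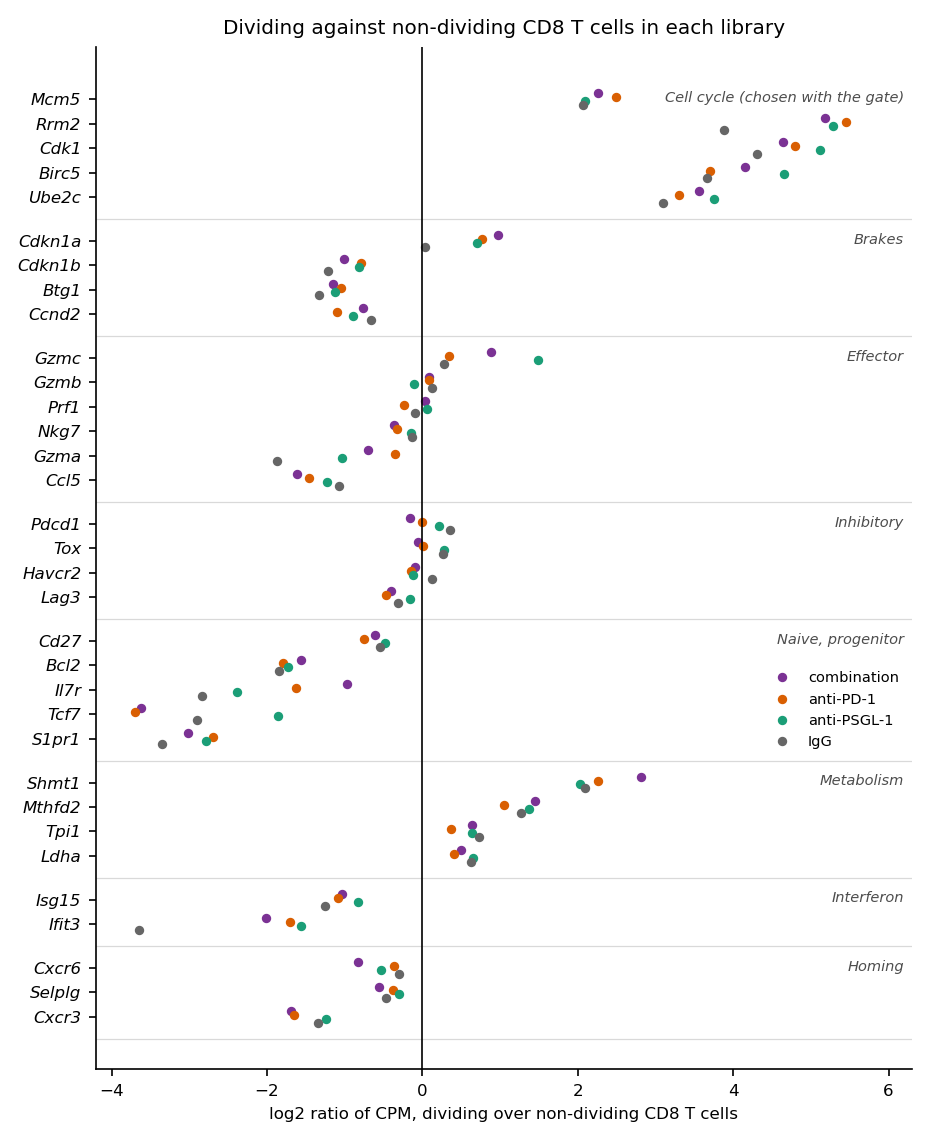
log2 ratio of CPM in dividing over non-dividing CD8 T cells (horizontal axis) for genes of each group (vertical axis), with 1 point per library. Cell cycle genes lie right of 2, naive and interferon genes left of 0 in every library, and Gzmb, Pdcd1 and Tox close to 0.

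Between treatments, dividing cells were compared by the ratio of CPM, with exact 95% intervals for counting error only. A gene counted where 1 of the 2 libraries reached 50 CPM. At 1.5-fold or more, 101 genes were higher (3.47%) and 50 lower (1.72%) in the combination than in IgG, of 2910. In anti-PD-1 over IgG the counts were 94 higher (3.23%) and 69 lower (2.37%) of 2906, and in anti-PSGL-1 over IgG 33 higher (1.16%) and 13 lower (0.456%) of 2850. The combination over anti-PD-1 gave 48 higher (1.67%) and 33 lower (1.15%) of 2880, and over anti-PSGL-1 108 higher (3.72%) and 133 lower (4.58%) of 2907. These comparisons share libraries. With 1 library per group no test was made.

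In dividing cells, which the same Mki67 and Top2a minimum chose in every library, the cell cycle genes differed little. Like levels follow in part from that choice. Over IgG, the licensing list had median log2 ratios of 0.04 in the combination, 0.07 in anti-PD-1 and -0.11 in anti-PSGL-1, and the kinetochore list -0.07 in the combination, -0.09 in anti-PD-1 and -0.0032 in anti-PSGL-1. In non-dividing cells the licensing medians were -0.20 in the combination, -0.16 in anti-PD-1 and -0.27 in anti-PSGL-1. The kinetochore medians there were -0.60 in the combination, -0.57 in anti-PD-1 and -1.07 in anti-PSGL-1. In dividing cells none of 11 licensing, 18 fork and 22 kinetochore genes at this level was past 1.5-fold in the combination over IgG. Of 20 chromatin genes 2 were lower. Among these, Hist1h2ap, a histone gene with near-identical copies, stood at 1456 CPM in the combination, 316 in the anti-PD-1, 3663 in the anti-PSGL-1 and 2346 in the IgG library in dividing cells. Its low value in the anti-PD-1 library was also seen in non-dividing cells (41.2 CPM in the combination, 9.71 in the anti-PD-1, 79.2 in the anti-PSGL-1 and 109 in the IgG library) and in macrophage-gated cells (3.26 CPM, against 23.8 to 59.1 in the other libraries). Gstp1 and Pgk1 were likewise low, and Tuba1b high, in dividing, non-dividing and macrophage-gated cells of the anti-PD-1 library.

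Many cytotoxic genes were higher with the combination and with anti-PD-1 than with IgG. In the combination over IgG 14 of 25 measured members were past 1.5-fold higher and none lower, against 3.47% of all genes higher, and the median log2 ratio was 0.88, against 0.01 for all genes. Anti-PD-1 over IgG had 14 of 25 higher, against 3.23% of all genes, and 3 lower (Gzmk, Ccl3 and Eomes), with a median of 0.72. Anti-PSGL-1 over IgG had 1 of 20 higher (Gzma), against 1.16% of all genes, with a median of 0.09. In non-dividing cells the same list had medians of 0.79 in the combination, 0.71 in anti-PD-1 and 0.13 in anti-PSGL-1 over IgG.

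Gzmb in dividing cells was 3.57 (95% interval 3.43 to 3.71) times as high in the combination as in IgG, 3.09 (95% interval 2.97 to 3.22) times in anti-PD-1 and 1.04 (95% interval 0.993 to 1.09) times in anti-PSGL-1. Prf1 stood at 403 CPM in the combination, 351 in the anti-PD-1, 128 in the anti-PSGL-1 and 133 in the IgG library. Gzmf, a granzyme of the same gene cluster, stood at 1112 CPM in the combination, 947 in the anti-PD-1, 23.0 in the anti-PSGL-1 and 27.4 in the IgG library in dividing cells, against 961 CPM in the combination, 1509 in the anti-PD-1, 56.2 in the anti-PSGL-1 and 99.0 in the IgG library in non-dividing cells. Gzmd, Gzme and Gzmf are near-identical neighbours, so counts may be split between them. At 3000 UMIs, Gzmf was detected in 27.8% of dividing cells in the combination, 25.4% in anti-PD-1, 2.46% in anti-PSGL-1 and 2.82% in IgG, against at most 1.55% of macrophage-gated cells of any library. In IgG only 13 dividing cells held Gzmf, and 1 of them held 28.2% of the UMIs. The ratio of the combination to IgG was 40.5, and 54.0 without the cell with most UMIs in each library. Gzmd was 33.2 times as high, and 116 times without those cells, with 4 IgG cells holding it. Gzme was 9.37 times as high, and 15.2 times without them. Serpinb9b, an inhibitor of serine proteases, was 21.6 times as high, and 28.0 times without them.

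Ccl9, a chemokine, was 8.86 times as high in the combination as in IgG, and was at 541 CPM in the combination and 596 in IgG in macrophage-gated cells. Gzmk, a granzyme of earlier effector cells, stood at 141 CPM in the combination, 57.6 in the anti-PD-1, 134 in the anti-PSGL-1 and 129 in the IgG library in dividing cells. It was 0.446 (95% interval 0.389 to 0.511) times as high in anti-PD-1 as in IgG, and 2.46 (95% interval 2.19 to 2.76) times as high in the combination as in anti-PD-1. In non-dividing cells the same 2 ratios were 0.727 and 2.65. Spp1, a secreted phosphoprotein, stood at 864 CPM in the combination, 337 in the anti-PD-1, 104 in the anti-PSGL-1 and 182 in the IgG library in dividing cells, 2.56 (95% interval 2.45 to 2.69) times as high in the combination as in anti-PD-1. Macrophages also make Spp1, and in macrophage-gated cells that ratio was 0.579. Xcl1, a chemokine that attracts cross-presenting dendritic cells, stood at 28.8 CPM in the combination, 98.1 in the anti-PD-1, 94.4 in the anti-PSGL-1 and 39.7 in the IgG library, and in the combination 1 cell held 50% of its UMIs. Anti-PSGL-1 over IgG gave ratios of 3.03 for Wfdc17, a secreted protease inhibitor of myeloid cells, 2.51 for the membrane protein gene Ifitm1, and 2.38 for Xcl1. It gave 0.565 for the heat shock gene Hspa1a and 0.565 for Areg, a growth factor.

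**Figure D5:**
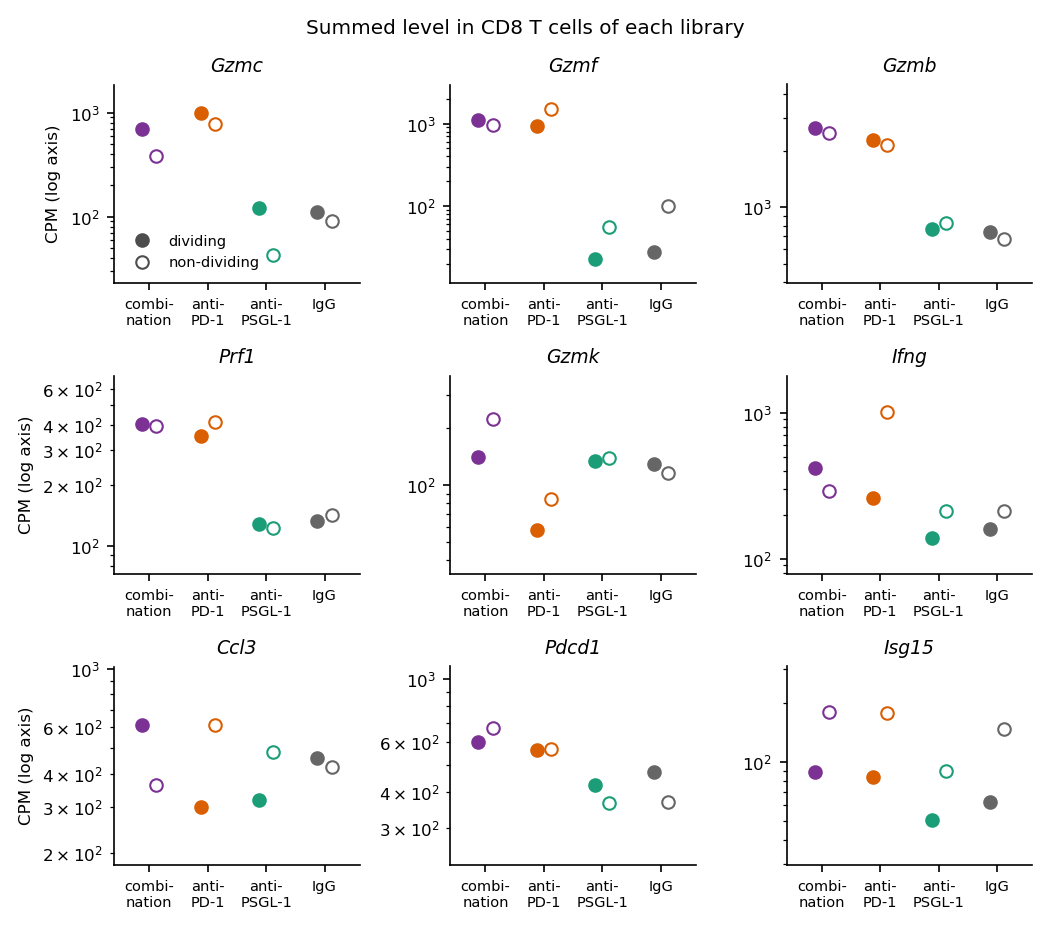
Summed level (CPM, log axis) of 9 genes in dividing (filled) and non-dividing (open) CD8 T cells of each library. Granzymes and Prf1 lie apart by library more than by kind of cell, while Isg15 lies lower in dividing cells of every library.

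Interferon response genes differed between treatments as well. In the combination over IgG 6 of 9 measured members were past 1.5-fold higher, against 3.47% of all genes, with a median log2 ratio of 0.87. In anti-PD-1 over IgG 4 of 8 were higher, against 3.23%, with a median of 0.60, and in anti-PSGL-1 over IgG 1 of 7 (Ifi27l2a), against 1.16%, with 0.13. In non-dividing cells the medians over IgG were 0.59 in the combination, 0.24 in anti-PD-1 and -0.03 in anti-PSGL-1. Igtp, a GTPase induced by interferon-gamma, stood at 94 CPM in the combination, 54.4 in the anti-PD-1, 32.3 in the anti-PSGL-1 and 34.1 in the IgG library in dividing cells. It was 2.76 (95% interval 2.29 to 3.34) times as high in the combination as in IgG and 1.73 (95% interval 1.53 to 1.96) times as high as in anti-PD-1. Ifi27l2a, a target of type I interferon, differed in pattern, at 324 CPM in the combination, 561 in the anti-PD-1, 571 in the anti-PSGL-1 and 265 in the IgG library, with its higher values in the 2 single-antibody libraries. Ly6c2, a surface protein of effector and memory CD8 T cells, stood at 545 CPM in the combination, 481 in the anti-PD-1, 404 in the anti-PSGL-1 and 191 in the IgG library, lowest in IgG.

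The inhibitory receptor list had a median log2 ratio of 0.36 in the combination, 0.08 in anti-PD-1 and -0.09 in anti-PSGL-1 over IgG. Pdcd1 was 1.27 (95% interval 1.21 to 1.34) times as high in the combination as in IgG, and 1.81 times in non-dividing cells. Selplg was 1.05 (95% interval 0.993 to 1.12) times as high in the combination and 1.04 (95% interval 0.977 to 1.12) times in anti-PSGL-1. Tox was 0.743 (95% interval 0.681 to 0.811) times as high in anti-PD-1 as in IgG.

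Genes far lower in the combination than in IgG were Mef2c, a transcription factor of myeloid and B cells (ratio 0.0360), Il12b, a cytokine subunit of dendritic cells (0.0619, from 2 cells in the combination and 4 in IgG, and 0.0034 without the cell with most UMIs in each), Lyz2 (0.0929), the inflammatory cytokine gene Il1b (0.166) and Tyrobp, an adaptor of myeloid and NK receptors (0.201). Lyz2 stood at 16.9 CPM in the combination, 47.7 in the anti-PD-1, 50.2 in the anti-PSGL-1 and 182 in the IgG library in dividing cells, against 134 CPM in the combination, 48.8 in the anti-PD-1, 133 in the anti-PSGL-1 and 640.3 in the IgG library in non-dividing cells. Cells with 5 or more UMIs of C1q genes and Lyz2 were 1.07% of dividing cells in the combination and 9.48% in IgG, and their part in these lower genes was not tested. Cd74 and H2-Ab1, which present antigen on MHC class II, and H2-Aa and H2-Eb1 were lower in the combination than in anti-PSGL-1, with ratios of 0.188 for H2-Aa and 0.191 for H2-Eb1. Cd74 stood at 226 CPM in the combination, 248 in the anti-PD-1, 1027 in the anti-PSGL-1 and 779 in the IgG library in dividing cells, against 348 CPM in the combination, 452 in the anti-PD-1, 671 in the anti-PSGL-1 and 1587 in the IgG library in non-dividing cells. Over 8 dendritic cell markers, Cd74 among them, dividing cells summed to 340 CPM in the combination, 384 in the anti-PD-1, 1476 in the anti-PSGL-1 and 1114 in the IgG library. The part of attached or swallowed cells in these values was not tested.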

How the data were processed

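Gene by barcode matrices of UMI counts were deposited by the authors, made from 10x Genomics 3' reads with Cell Ranger 3.1.0 against mm10 per the submitters' processing notes; the annotation version is not given in the sources used here. Of 27270 barcodes 25954 were kept. The members and gene lists were chosen with earlier results of these data known. Counts were summed per library over dividing and over non-dividing CD8 T cells (8 sums), and fitted with edgeR 4.0.16 in R 4.3.3 (glmQLFit, TMM, filterByExpr, Benjamini-Hochberg) with the library as a block. The pairing comes from the library: both sums of a pair come from 1 library. p-values measure the spread between 4 libraries of 4 treatments. The test was checked on simulated counts for this comparison: it called 38 of 67 genes changed 1.5-fold and 67 of 67 changed 2-fold. Between treatments, ratios of counts scaled to a common total (CPM) carry exact intervals for counting error only.

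Library totals were 40913129 to 53303195 UMIs, and dividing cells summed to 10841613 UMIs in the combination, 6583268 in the anti-PD-1, 5612353 in the anti-PSGL-1 and 3757347 in the IgG library. Named genes were the 10 with the largest log2 ratio each way outside the cell cycle lists, the 5 with the largest ratio each way per treatment comparison, the 2 highest and 2 lowest of each list, Pdcd1, Selplg and the gate markers; the other genes named, such as Gzmb, Prf1, Tcf7 within its list, Isg15 and Lag3, were chosen with their values known. Doublets were not removed in the main values: Scrublet, run in scanpy 1.11.5, marked 0 to 75 cells per library at its own threshold and so had not worked; removing the highest-scoring 0.8% per 1000 cells was an alternative. Gene positions are GENCODE M21 (mm10), matched for 27645 of 27998 identifiers. Promoters are RefSeq GRCm38.p6. Alternatives were other tools, filters, gates, depths and leaving out each library. Some genes of the lists are not reported here.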

Additional observations from a re-analysis of the deposited data

Results flagged for a closer look

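Of the genes in the lists at 50 CPM or more, 4 had ratios of dividing to non-dividing CD8 T cells past 0.5 on the log2 scale in opposite directions in 2 libraries. With 1 library per treatment the difference was not tested. Ifng, the cytokine interferon-gamma, had a log2 ratio of 0.54 in the combination and -1.96 in the anti-PD-1 library, with -0.62 in anti-PSGL-1 and -0.41 in IgG. Per dividing cell it had 8.09 UMIs in the combination, 4.39 in anti-PD-1, 2.13 in anti-PSGL-1 and 1.83 in IgG, against 2.34 UMIs in the combination, 7.67 in anti-PD-1, 1.40 in anti-PSGL-1 and 0.899 in IgG per non-dividing cell. The share of cells with Ifng did not follow its ratio in anti-PD-1: at 3000 UMIs it was detected in 33.1% of dividing and 26.9% of non-dividing cells there, and in 37.4% of dividing and 24.0% of non-dividing cells in the combination. Ccl3, a chemokine of activated T cells and macrophages, had 0.76 in the combination and -1.04 in anti-PD-1, with -0.60 in anti-PSGL-1 and 0.11 in IgG, where 1 dividing cell held 30.8% of its UMIs.

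The MHC class II genes H2-Ab1 and Cd74 were the other pair. H2-Ab1 had 0.69 in anti-PSGL-1 and -1.06 in IgG, with -0.63 in the combination and -0.84 in anti-PD-1. Cd74 had 0.61 in anti-PSGL-1 and -1.03 in IgG, with -0.62 in the combination, where 1 dividing cell held 23.3% of its UMIs, and -0.87 in anti-PD-1.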

How the results depend on the processing

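Of the genes outside the cell cycle lists, 2558 were higher and 2861 lower in dividing cells. Leaving out 1 library at a time gave 2187 to 2384 higher and 2287 to 2545 lower. DESeq2's Wald test gave 1851 higher and 1803 lower. The library block pairs the sums of 1 library, and with no replicate block 1960 were higher and 1821 lower. With each cell thinned to 3000 UMIs, 1684 were higher and 1797 lower, which held 63.9% and 59.1% of the calls above. No gene was called in the opposite direction under any of these settings, and the cause of the lower counts was not tested. Among named genes, 55 of 1188 values under an alternative lost the call. The genes that turned sign were not past the threshold in any of these fits. With 1 library left out at a time, log2 ratios of dividing to non-dividing cells ran from -0.78 to 0.0034 for Gzmd, from -0.012 to 0.086 for Gzmb and from -0.031 to 0.15 for Pdcd1. Gzmb was -0.023 at a gate of 5 or more UMIs, -0.11 without naive-like cells and -0.021 without cells above 30000 UMIs. Pdcd1 was -0.058 and Tox -0.033 without naive-like cells. Prf1 was 0.0045 at a gate of 2 or more UMIs. Thinned to 3000 UMIs, Prf1 was 0.14, Gzme 0.14, Havcr2 0.12 and Itgb2 0.064.

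Counts past 1.5-fold between treatments moved with the minimum level. At 20 CPM they were 186 higher and 123 lower for the combination over IgG, 187 and 143 for anti-PD-1 over IgG, 94 and 48 for anti-PSGL-1 over IgG, 79 and 81 for the combination over anti-PD-1, and 187 and 244 over anti-PSGL-1. At 100 CPM they were 61 and 24, 55 and 35, 18 and 7, 28 and 18 in the same order of comparisons, and 68 higher in the last. At 2-fold they were 46 and 21, 34 and 35, 7 and 3, 16 and 8, and 31 and 43. Thinned to 3000 UMIs, 90 were lower for the combination over IgG, 123 lower for anti-PD-1 over IgG, 91 higher and 83 lower for anti-PSGL-1 over IgG, 81 higher and 65 lower for the combination over anti-PD-1, and 191 higher over anti-PSGL-1. For anti-PSGL-1 over IgG, 21 were lower with each cell weighing the same, 52 higher and 23 lower at a gate of 5 UMIs, and 57 higher without cells with 5 or more C1q or Lyz2 UMIs, where Lyz2 was 0.14 on the log2 scale. That last setting was chosen after seeing the data, and since it removes cells by Lyz2 itself, a smaller Lyz2 difference follows from its construction.

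The dividing share of CD8 T cells moved with the gate. It was 55.4% in the combination, 52.5% in anti-PD-1, 45.3% in anti-PSGL-1 and 38.4% in IgG at 1 or more UMIs, 39.2%, 38.8%, 30.4% and 22.3% in that order at 2 or more, and 26.5%, 26.3%, 21.4% and 13.3% at 5 or more. Thinned to 2000 UMIs it was 30.7% in the combination (28.5% to 32.9%), 31.4% in anti-PD-1 (28.7% to 34.1%), 27.9% in anti-PSGL-1 and 24.7% in IgG (22.7% to 26.8%) at 1 or more, 16.6%, 18.2%, 14.6% and 12.5% at 2 or more, and 9.23%, 12.1%, 9.85% and 6.49% at 3 or more. Thinned to 3000 UMIs it was 38.2%, 37.6%, 32.8% and 34.5% at 1 or more, 22.1%, 23.8%, 19.7% and 19.4% at 2 or more, and 15.7%, 17.7%, 14.4% and 12.8% at 3 or more. IgG was lowest in every setting but thinning to 3000 UMIs with 1 or more, where anti-PSGL-1 was lowest. One library per treatment gives no error between tumours, intervals cover counting error only, and genes held by few cells, above all in IgG, rest on those cells.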

Other observations

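A group of genes stood apart in the anti-PD-1 library in every kind of cell looked at. In macrophage-gated cells Gstp1 was at 6.84 CPM in anti-PD-1, against 61.0 to 64.7 in the other libraries, Pgk1 at 31.3 against 96.6 to 131 and Tuba1b at 273 against 128 to 144. These genes have near-identical copies or pseudogenes. What sets the library apart was not tested.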
